A study of Homo sapiens with 4 samples.

Results

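The 9 genes described here encode blood group carriers and other proteins of the red cell membrane, namely RHAG, RHCE, SLC4A1, GYPB, GYPE, GYPC, KEL, XK and ERMAP. They were chosen by symbol, with earlier results of these data known. Each was found once among the 28412 genes of the deposited table. RNA-seq was performed on the human leukemia line labelled NB4, a promyelocytic line. The cells had been infected with the lentiviral control vector sh-NC (2 libraries) or with an shRNA vector against LDB1, sh-LDB1 (2 libraries), and all had been selected with puromycin. A label also calls the sh-NC libraries untreated. Which of the study's LDB1 shRNAs was sequenced is not given in the sources used here, and the labels do not say whether the libraries of a group came from separate cultures. The p-values therefore measure only the spread between these samples, which may be technical.

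The red cell membrane is held to an underlying protein skeleton by complexes built around band 3, the product of SLC4A1, and around the Rh proteins. Glycophorins coat the surface with sialic acid, and the Kell protein is bonded to XK. Many of these proteins carry blood group antigens, and their genes are switched on as erythroid precursors mature, largely through GATA1, KLF1 and the complex in which LDB1 joins LMO2 and TAL1. LDB1 itself binds no DNA and helps to hold distant enhancers to promoters. The comparison gives how much RNA of each membrane gene was left when LDB1 was reduced.

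The promoters show one feature that the choice of genes did not use. RefSeq windows running from 250 bases before to 50 bases after a transcription start (GRCh38.p14) were given for 7 of the 9 genes, with 10 windows in all, and SLC4A1 and XK had none. GATAA, the core of the sequence read by GATA factors, was searched on both strands. It stood in a window of 6 of the 7 genes (8 of 10 windows), against 26.6% of all 27305 genes and 22.7% of all 35116 windows. GYPC was the gene without it. The window counts are not counts of separate sites. The windows of RHCE overlap and hold the same GATAA, as do those of GYPB, and GYPE is a near copy of GYPB. The 4 stretches below are shown because they hold GATAA close before the start, and because the GYPB and GYPE pair shows how alike the glycophorin copies are. Each runs 5′ to 3′ on the minus strand, from 250 bases before the start to 5 bases after it, and capitals mark GATAA or its reverse complement TTATC.
KEL, chr7:142962359-142962613: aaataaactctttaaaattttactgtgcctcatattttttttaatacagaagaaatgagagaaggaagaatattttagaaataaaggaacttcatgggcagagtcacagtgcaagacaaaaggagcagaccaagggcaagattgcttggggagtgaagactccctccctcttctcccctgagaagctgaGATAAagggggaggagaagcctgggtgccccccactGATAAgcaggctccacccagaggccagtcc
RHAG, chr6:49636835-49637089: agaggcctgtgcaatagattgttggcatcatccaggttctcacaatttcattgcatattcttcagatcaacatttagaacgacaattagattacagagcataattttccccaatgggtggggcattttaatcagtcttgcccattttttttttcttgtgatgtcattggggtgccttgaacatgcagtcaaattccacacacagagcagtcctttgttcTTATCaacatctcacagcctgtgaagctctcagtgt
GYPB, chr4:144019376-144019630: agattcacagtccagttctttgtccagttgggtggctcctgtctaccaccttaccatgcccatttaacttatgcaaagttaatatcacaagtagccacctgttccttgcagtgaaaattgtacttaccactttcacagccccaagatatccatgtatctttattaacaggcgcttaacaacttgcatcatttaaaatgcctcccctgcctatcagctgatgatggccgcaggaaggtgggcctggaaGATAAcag
GYPE, chr4:143905555-143905809: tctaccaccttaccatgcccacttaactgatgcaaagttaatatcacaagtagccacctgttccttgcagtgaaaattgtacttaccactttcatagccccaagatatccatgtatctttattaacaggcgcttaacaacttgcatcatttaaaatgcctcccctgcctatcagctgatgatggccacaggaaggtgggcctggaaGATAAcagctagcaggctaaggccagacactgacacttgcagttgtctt

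KEL held GATAA 61 and 25 bases before its start. RHAG held TTATC from 31 bases before its start, GYPE held GATAA from 44 bases before, and GYPB from 3 bases before the start used for this window. The GYPB and GYPE stretches were the same at 210 of 214 bases when shifted against each other and placed without gaps (98.1%). CACCC, the core of the sequence read by KLF1, was in 6 of the 7 genes (8 of 10 windows), against 63.1% of all genes and 59.9% of all windows. The E-box CANNTG was in 3 of the 7 (4 of 10 windows), against 73.1% of all genes and 68.7% of all windows. The composite motif, in which CTG precedes GATA, was in 1 of the 10 windows with 7 bases between them (GYPC), against 1.91% of all windows. With 8 bases between them it was in 3 of the 10 (GYPB and GYPE), against 1.98%. These 3 matches have the same letters, in overlapping windows of GYPB and in its near copy GYPE. They are therefore not separate sites, and their share cannot be set against that of all windows. Its matches can overlap those of GATAA and CANNTG. A match of letters is a description only and says nothing about binding.

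The knockdown and the identity of the cells were checked first. LDB1 had 135.1 and 120.1 FPKM in the sh-NC libraries, against 10.2 and 9.47 FPKM with sh-LDB1, where FPKM is the number of fragments divided by gene length and library size. The table corresponded to 14746640 to 16182630 reads per library in its scaling. The cell type was checked against marker lists. The 8 promyelocytic and granulocytic markers of the list of 10 that were analysed summed to 12.7 and 11.7 FPKM in sh-NC and to 46.3 and 42.8 FPKM in sh-LDB1, and ELANE, neutrophil elastase, was listed at 0 in 3 of the 4 libraries. ELANE was named after its values were seen. The 11 erythroid markers summed to 3776 and 3959 FPKM in sh-NC and to 356 and 321 FPKM in sh-LDB1, with HBZ, the embryonic alpha-like globin, at 1543 and 1600 FPKM in sh-NC. The control cells thus held far more erythroid than granulocytic marker RNA, which goes against the promyelocytic label. Of the granulocytic list 7 genes were tested, with 0 lower and 4 higher past the threshold, where 9.5% of all genes tested were higher. ITGAM, among those 4 and named after its values were seen, had 0.0217 and 0.0596 FPKM in the sh-NC libraries, against 4.89 and 4.94 FPKM with sh-LDB1. It passed the filter on mean level only through sh-LDB1. The 4 megakaryocytic markers analysed summed to 3.13 and 2.86 FPKM with sh-NC and to 3.91 and 3.42 FPKM with sh-LDB1. The 4 lymphoid markers analysed summed to 24.1 and 21.3 FPKM with sh-NC and to 44.9 and 47.7 FPKM with sh-LDB1, and most of that sum was CD3D, a chain of the T cell receptor complex. CD3D, also named after its values were seen, had 23.2 and 20.1 FPKM in the sh-NC libraries, against 42.2 and 45.2 FPKM with sh-LDB1 (log2 fold change 0.98, limma adjusted p = 0.000783), just short of the fold threshold. It passed with a pseudocount of 0.1 (1.01), with every library scaled to the same sum (1.15), by voom (1.01), without sh-NC replicate 1 (1.08) and without sh-LDB1 replicate 1 (1.03). In each of these lists 0 of 2 tested genes passed the threshold. The part of these markers in the results below was not tested. In bulk RNA, fewer cells of a type and less RNA per cell cannot be told apart.

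All 9 genes fell after LDB1 knockdown. Each was tested, and 9 of 9 were lower past the threshold, which asked for a limma adjusted p under 0.05 together with a ratio under 0.5, from log2(FPKM + 1). Of the 13300 genes tested, 10.3% were lower past it and 19.8% passed it in either direction. The 9 were chosen with earlier results of these data known, so setting their count against these shares is a description only. For each of the 9, both sh-LDB1 libraries were below both sh-NC libraries, which held for 46.3% of all genes tested. The median log2 fold change of the 9 was -2.30, and that of all genes tested was -0.08. Their summed level was 496.6 and 529.9 FPKM in sh-NC and 68.5 and 64.7 FPKM in sh-LDB1. The erythroid marker list moved with them, with 10 of its 10 tested genes lower past the threshold, and its part in the result was not tested. That list, too, was chosen with earlier results known.

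**Figure D1:**
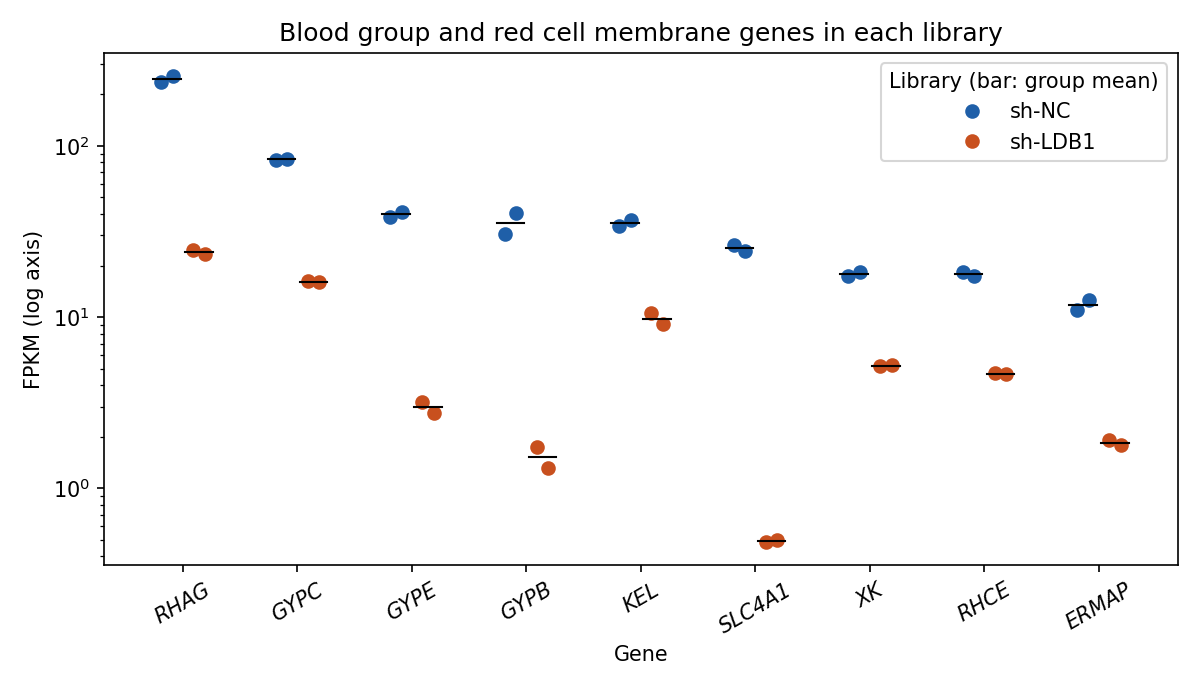
FPKM (log axis) of the 9 genes in the 4 libraries, ordered by their sh-NC mean; points are libraries and bars are group means. In every gene both sh-LDB1 points lie below both sh-NC points, and SLC4A1 lies lowest after knockdown, at 0.487 and 0.502 FPKM.

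SLC4A1 fell furthest. It encodes band 3, the chloride-bicarbonate exchanger that carries the Diego antigens and anchors the skeleton through ankyrin (ENSG00000004939, minus strand of chromosome 17, 44248390 to 44268141, GRCh38). Control cells held 26.5 and 24.4 FPKM of it, against 0.487 and 0.502 FPKM with sh-LDB1, which rested on 2201 and 1848 reads and on 40 and 39 reads. The groups were far apart and the replicates close, and 1.94% of the control level was left. On the log2 scale it changed by -4.15 (standard error 0.0687, limma adjusted p = 6.77e-05), the 5th lowest of all genes tested. The pseudocount holds this value back. It was -5.43 with a pseudocount of 0.1.

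Among the 4839 genes that averaged 10 FPKM or more, those whose centred log2(FPKM + 1) profile lay closest to that of SLC4A1 were GYPB, HBZ, PKLR, LDB1 and AC104389.5, at Euclidean distances of 0.50, 0.555, 0.561, 0.588 and 0.709. These distances rest on 4 libraries in 2 groups, so they mostly restate the size of the fall. PKLR, the pyruvate kinase of red cells and liver, had 65.0 and 63.6 FPKM in the sh-NC libraries, against 1.34 and 1.77 FPKM with sh-LDB1.

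The Rh genes fell to different degrees. RHAG, the Rh-associated glycoprotein, is a gas and ammonium channel without which Rh antigens do not reach the surface (ENSG00000112077, minus strand of chromosome 6, 49605175 to 49636839). It was the most abundant of the 9 on the FPKM scale, with 237 and 255 FPKM in the sh-NC libraries, against 24.7 and 23.3 FPKM with sh-LDB1. Although it stayed the most abundant of the 9 after knockdown, 9.74% of its level was left (-3.31 on the log2 scale, standard error 0.0572, limma adjusted p = 6.77e-05).

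RHCE, which carries the C, c, E and e antigens (ENSG00000188672, minus strand of chromosome 1, 25362249 to 25430192), was at 18.4 and 17.3 FPKM in sh-NC. It was at 4.69 and 4.67 FPKM in sh-LDB1. The replicates were close in both groups, and 26.2% was left (-1.73 on the log2 scale, standard error 0.0557, limma adjusted p = 0.000101). Its split from RHD is uncertain, since 25.7% of the 1522 windows of 50 bases in its canonical transcript also occur in an RHD transcript. RHD, named here for that reason, had 14.7 and 13.0 FPKM in the sh-NC libraries, against 1.15 and 1.2 FPKM with sh-LDB1 (log2 fold change -2.77). Both therefore fell, and how reads were divided between them is not given in the sources used here.

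The glycophorins of chromosome 4 were next in the size of the fall. GYPB, which carries the S and s antigens (ENSG00000250361, minus strand, 143996104 to 144019380), had 30.6 and 40.4 FPKM in the sh-NC libraries, against 1.73 and 1.31 FPKM with sh-LDB1. It had the widest replicate spread of the 9, 1.32-fold in sh-NC and 1.33-fold in sh-LDB1, and 926 and 1116 reads stood against 52 and 37 reads. The difference between the groups was larger than that spread, with 4.28% left (-3.85 on the log2 scale, standard error 0.163, limma adjusted p = 0.00015).

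GYPE, a further copy in the same cluster (ENSG00000197465, minus strand, 143870864 to 143905563), had 38.3 and 41.3 FPKM in the sh-NC libraries, against 3.18 and 2.77 FPKM with sh-LDB1. This left 7.47% (-3.36 on the log2 scale, standard error 0.0764, limma adjusted p = 7.03e-05). The split within the cluster is uncertain. Of the 515 windows of 50 bases in the canonical GYPB transcript, 26.8% occur in a transcript of some other gene and 4.27% occur in one of GYPE. For GYPE against GYPB the share was 1.04% of 1638 windows.

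GYPC is not a copy of these genes. It encodes glycophorins C and D, which carry the Gerbich antigens and bind protein 4.1 and p55 of the skeleton (ENSG00000136732, plus strand of chromosome 2, 126656133 to 126696667). It had 82.7 and 84.1 FPKM in the sh-NC libraries, against 16.2 and 16.1 FPKM with sh-LDB1. The replicates differed least here among the 9 in sh-NC, 1.02-fold, and 19.3% was left (-2.30 on the log2 scale, standard error 0.0393, limma adjusted p = 6.77e-05). None of its 969 windows occurred in another gene.

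The partners KEL and XK kept more of their RNA. KEL, a zinc endopeptidase that carries the Kell antigens (ENSG00000197993, minus strand of chromosome 7, 142941114 to 142962363), had 34.2 and 36.7 FPKM in the sh-NC libraries, against 10.5 and 9.07 FPKM with sh-LDB1. XK, which carries the Kx antigen (ENSG00000047597, plus strand of chromosome X, 37685791 to 37732130), had 17.5 and 18.3 FPKM in the sh-NC libraries, against 5.16 and 5.24 FPKM with sh-LDB1. The groups did not overlap for either gene. The share left was 27.6% for KEL (-1.76 on the log2 scale, standard error 0.0835, limma adjusted p = 0.000178). For XK it was 29.1% (-1.61 on the log2 scale, standard error 0.0524, limma adjusted p = 0.000103).

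ERMAP, a butyrophilin-like protein of erythroblasts that carries the Scianna antigens (ENSG00000164010, plus strand of chromosome 1, 42817122 to 42844991), was the least abundant of the 9 in sh-NC, at 11.1 and 12.6 FPKM. It was at 1.91 and 1.79 FPKM in sh-LDB1, which left 15.6% (-2.17 on the log2 scale, standard error 0.0842, limma adjusted p = 0.000127). Of its 3391 windows, 8.52% occurred in another gene, nearly all in ZNF691-DT, a noncoding gene that overlaps it on the other strand.

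The shares left were then compared among the 9, using the ratio of each sh-LDB1 library to each sh-NC library, which gives 4 ratios per gene. These ran from 1.84% to 2.06% for SLC4A1, from 3.23% to 5.67% for GYPB and from 6.71% to 8.30% for GYPE. They ran from 9.13% to 10.4% for RHAG, from 14.2% to 17.2% for ERMAP and from 19.1% to 19.5% for GYPC. Up to GYPC, no neighbours in this order overlapped. The range of KEL, 24.7% to 30.7%, covered those of RHCE, 25.4% to 27.1%, and XK, 28.2% to 29.99%, so KEL cannot be placed apart from either beyond the spread. With 2 libraries per group these ranges are a description, and the differences between genes were not tested.

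**Figure D2:**
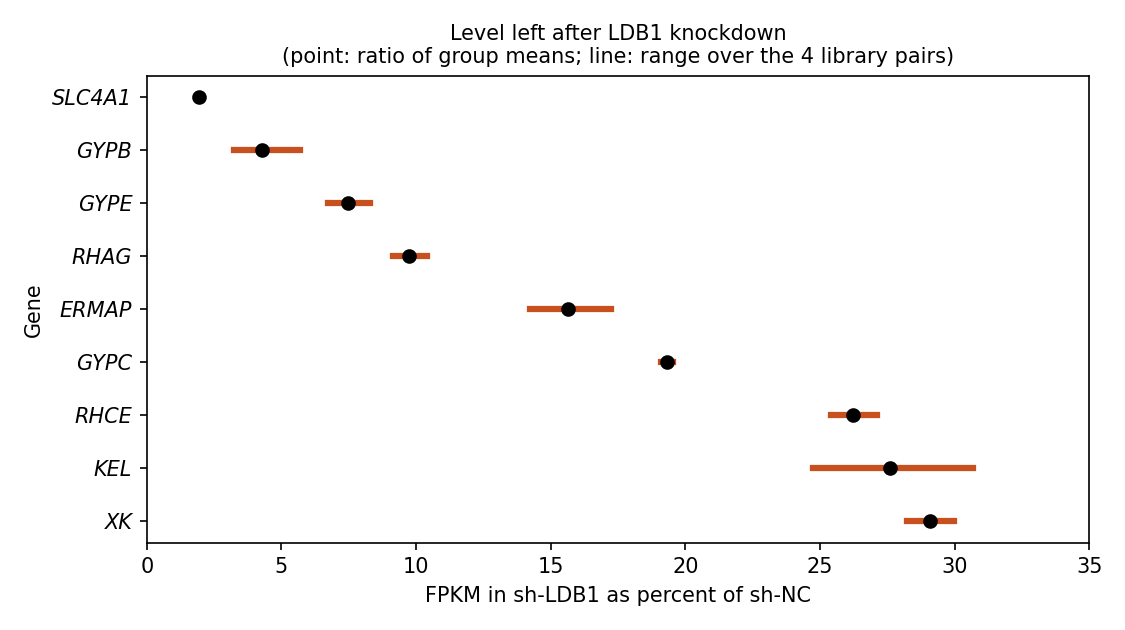
FPKM in sh-LDB1 as a percent of sh-NC (x axis) for each of the 9 genes (y axis); points are ratios of group means and lines the range over the 4 library pairs. SLC4A1 lies at 1.94% and XK at 29.1%, and KEL overlaps RHCE and XK.

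The order of levels changed with the knockdown. In sh-NC, levels fell in the order RHAG, GYPC, GYPE, GYPB, KEL, SLC4A1, XK, RHCE and ERMAP. The libraries of GYPB overlapped there with those of GYPE and of KEL, and XK overlapped with RHCE. In sh-LDB1 the order was RHAG, GYPC, KEL, XK, RHCE, GYPE, ERMAP, GYPB and SLC4A1, with no overlap between neighbours. SLC4A1 thus went from above XK, RHCE and ERMAP to below all of the other 8.

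The genes that anchor these proteins to the skeleton were examined next. Of the 14 anchor and skeleton genes listed, 12 were tested and 7 were lower and 0 higher past the threshold, with a median log2 fold change of -1.60 (10.3% of all genes tested were lower). SPTB, the beta chain of erythroid spectrin, fell from 18.2 and 17.1 FPKM to 0.692 and 0.585 FPKM (log2 fold change -3.51). TMOD1, which caps actin at its slow-growing end (-3.43), and DMTN, the actin-bundling protein dematin (-2.34), followed it. Of the direct binding partners of the 9, ANK1, the ankyrin that binds band 3, fell by 1.5 on the log2 scale and MPP1, the p55 that binds GYPC, fell by 1.71. EPB41, the protein 4.1 that binds GYPC, had a log2 fold change of -0.62 and VPS13A, which binds XK, had -0.42, and neither passed the fold threshold. EPB42, the band 4.2 partner of band 3, was under the filter of a mean of 1 FPKM, with 0.671 and 0.803 FPKM in the sh-NC libraries, against 0 and 0.0217 FPKM with sh-LDB1. ANK1, MPP1, EPB41, VPS13A and EPB42 were picked out after their values were seen.

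A list of 28 other genes held carriers of blood group antigens and the potassium channel KCNN4. Of these, 19 were tested and 3 were lower and 0 higher past the threshold, with a median log2 fold change of -0.46. With 10.3% of all genes tested lower, this count says little about the list. AQP1, the water channel of the Colton antigens, fell from 14.2 and 13.2 FPKM to 0.999 and 0.962 FPKM (log2 fold change -2.89, limma adjusted p = 7.46e-05). SLC29A1, the nucleoside transporter of the Augustine antigens, fell by 1.54. ABCB6, the porphyrin transporter of the Langereis antigens, fell by 1.02, a call lost at -0.92 with every library scaled to the same sum of FPKM, and at -0.95 without sh-NC replicate 2 or without sh-LDB1 replicate 2. CD47, which travels with the Rh complex, had a log2 fold change of -0.47, and BSG, the basigin of the Ok antigens, had -0.06, which turned to 0.11 with the libraries scaled to the same sum and to 0.01 without sh-NC replicate 1. CD47 and BSG were also picked after their values were seen.

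Of the 12 glycosyltransferases and related genes that make carbohydrate antigens, 5 were tested, 2 were lower and 0 were higher past the threshold, and the median log2 fold change was -0.18, a count too small to set against the background of 10.3%. ABO, whose enzyme makes the A and B antigens, fell from 9.83 and 10.7 FPKM to 4.76 and 4.22 FPKM (log2 fold change -1.04). FUT1, whose enzyme makes their H precursor, fell from 3.44 and 3.50 FPKM to 1.35 and 1.03 FPKM (-1.03). Both calls were lost when the libraries were scaled to the same sum, at -0.89 for ABO and -0.92 for FUT1. The call of ABO was also lost without sh-NC replicate 2 (-0.98), and both were lost without sh-LDB1 replicate 2 (-0.97 for ABO, -0.93 for FUT1). C1GALT1C1, the chaperone of the core O-glycan enzyme, had a log2 fold change of 0.64 and did not pass the fold threshold.

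The tested relatives of the 9 were not lower past the threshold in the test used throughout. Of 26 listed anion exchangers, Rh-like, Kell-like, XK-like and butyrophilin genes, 8 were tested, with 0 lower and 3 higher past the threshold, where 9.5% of all genes tested were higher. The 3 were the butyrophilins BTN3A3 (log2 fold change 1.55), BTN3A1 (1.40) and BTN3A2 (1.17), which take part in the recognition of phosphoantigens by T cells and share similar sequence. BTN3A3 had 0.885 and 1.11 FPKM in sh-NC, a mean just under 1. It therefore passed the filter on mean level only through sh-LDB1. BTN3A1 had 3.28 and 3.52 FPKM in the sh-NC libraries, against 10.4 and 10.9 FPKM with sh-LDB1, whereas the butyrophilin-like ERMAP fell. SLC4A2, the anion exchanger of most other cells, had 38.0 and 32.2 FPKM in sh-NC and 42.3 and 43.3 FPKM in sh-LDB1 (log2 fold change 0.28), a difference within the fold threshold. SLC4A7, a sodium bicarbonate cotransporter of the same family, had 2.17 and 1.91 FPKM in the sh-NC libraries, against 0.870 and 0.818 FPKM with sh-LDB1, which left 41.3% (log2 fold change -0.72, limma adjusted p = 0.00632), short of the fold threshold on this scale. It was lower past the threshold with a pseudocount of 0.1 (-1.18) and by voom on recovered reads (-1.27). SLC4A2 and SLC4A7 were also picked after their values were seen. The tested genes of each list had passed the filter on level, so these counts do not cover all listed genes.

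**Figure D3:**
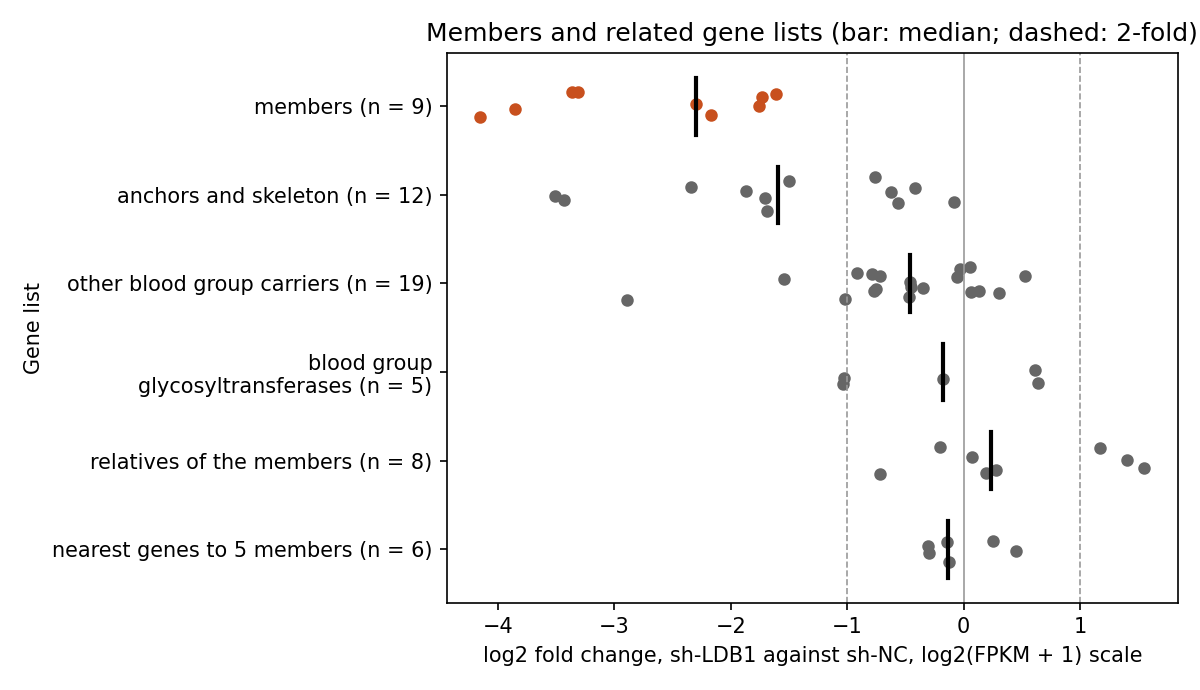
Log2 fold change on the log2(FPKM + 1) scale (x axis) for tested genes of each list (y axis); points are genes, bars medians and dashed lines 2-fold. The 9 genes lie from -4.15 to -1.61, with a median of -2.30, against medians of -1.60, -0.46, -0.18, 0.24 and -0.14 in the other rows, the last being the neighbours of 5 of the 9.

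The nearest protein-coding genes on either side of RHCE, ERMAP, SLC4A1, KEL and XK were taken from GENCODE release 44, and the neighbours of the remaining 4 genes are not described here. Of these 10 neighbours 6 were tested, and 0 passed the threshold in limma or in voom on recovered reads. With 19.8% of all genes tested past it in limma in either direction, 0 of 6 says little about the neighbours. At an unadjusted limma p under 0.05 there were 4 neighbours, and all 4 also had a limma adjusted p under 0.05. These were UBTF (0.00367), RSRP1 (0.0152), ZNF691 (0.0309) and TMEM269 (0.0375), which missed only the fold threshold. Of them, TMEM269 passed the filter on mean level only through sh-LDB1. RHCE lies 24036 bases from RSRP1 and 666 bases from MACO1. RSRP1 had 9.14 and 9.57 FPKM in the sh-NC libraries, against 11.0 and 11.5 FPKM with sh-LDB1 (log2 fold change 0.25). MACO1 had 9.91 and 10.7 FPKM in the sh-NC libraries, against 9.79 and 8.95 FPKM with sh-LDB1 (-0.13), and its sign turned when the libraries were scaled to the same sum (0.03). TMEM50A, which overlaps RHCE on the other strand and shares 4.2% of its windows, had a log2 fold change of -0.21. RHCE thus fell between and across genes that stayed within the fold threshold, namely RSRP1, MACO1 and TMEM50A. RHD was not among the neighbours taken here, and it fell too (log2 fold change -2.77).

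The surroundings of ERMAP, SLC4A1 and KEL were looked at in the same way. ZNF691, 1582 bases from ERMAP, had 9.62 and 8.33 FPKM in the sh-NC libraries, against 7.27 and 6.91 FPKM with sh-LDB1 (log2 fold change -0.30). TMEM269, 503 bases away on the other side, had 0.763 and 0.713 FPKM in the sh-NC libraries, against 1.31 and 1.45 FPKM with sh-LDB1 (0.45). At this low level the pseudocount holds its value back, and it was 0.82 with a pseudocount of 0.1 and 0.89 by voom on recovered reads. SVBP, which overlaps ERMAP on the other strand, had 11.8 and 11.3 FPKM in the sh-NC libraries, against 10.3 and 11.6 FPKM with sh-LDB1. UBTF, 26764 bases from SLC4A1, had 32.4 and 31.1 FPKM in the sh-NC libraries, against 25.3 and 25.4 FPKM with sh-LDB1 (-0.31). LLCFC1, 246 bases from KEL, had 2.95 and 3.53 FPKM in the sh-NC libraries, against 3.04 and 2.65 FPKM with sh-LDB1 (-0.14). None of these 5 passed the fold threshold. Both neighbours of XK were under the filter. LANCL3, 1328 bases away, had 0.318 and 0.296 FPKM in the sh-NC libraries, against 0.139 and 0.0642 FPKM with sh-LDB1, which left 33.1% and rested on 53 and 45 reads against 23 and 10 reads. Its groups did not overlap, and it was not tested. CYBB, the phagocyte oxidase subunit, 47888 bases away, had 0.265 and 0.598 FPKM in the sh-NC libraries, against 0.226 and 0.239 FPKM with sh-LDB1. RUNDC3A, 40272 bases from SLC4A1 on the side away from UBTF, was under the filter as well, with 0.781 and 0.525 FPKM in the sh-NC libraries, against 0.547 and 0.620 FPKM with sh-LDB1. OR9A2, the other neighbour of KEL, was not analysed here. TMEM50A and SVBP were chosen after the table had been seen, for their overlap.

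**Figure D4:**
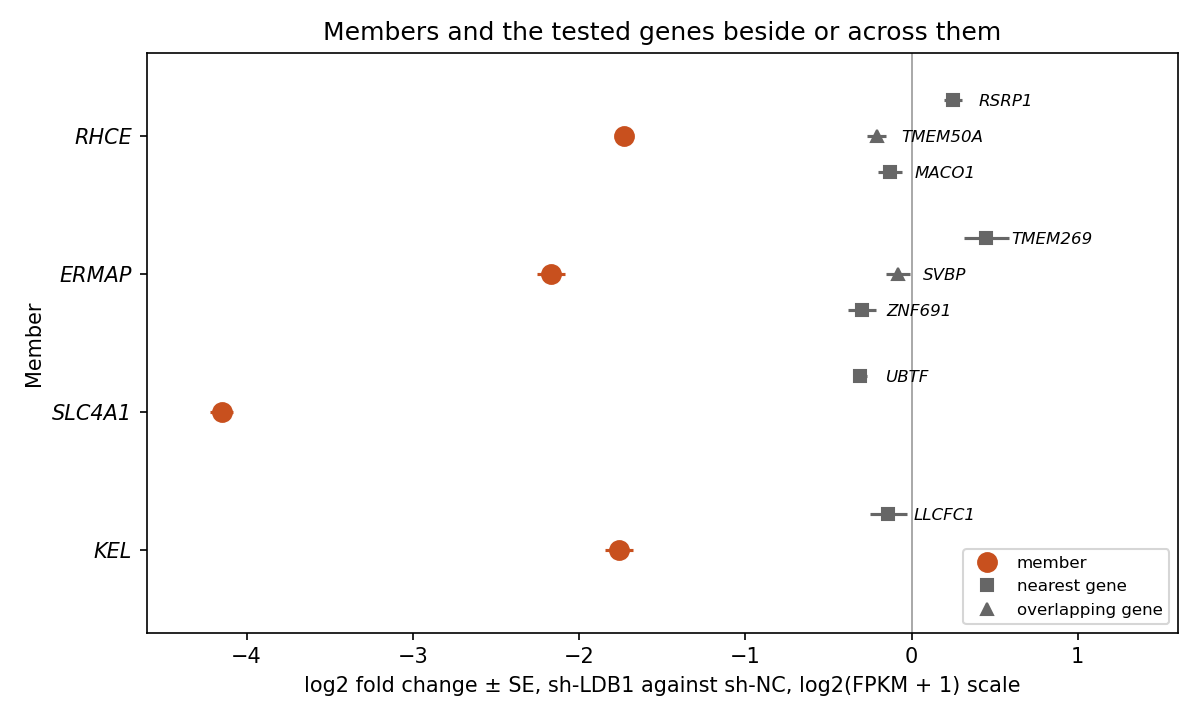
Log2 fold change with its standard error on the log2(FPKM + 1) scale (x axis) for 4 of the 9 genes (circles, y axis) and for the tested genes nearest to them (squares) or overlapping them (triangles). The neighbours lie between -0.31 and 0.45, while the 4 genes lie between -4.15 (SLC4A1) and -1.73 (RHCE). RHD, which fell with RHCE, is not drawn.

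Known activators of these genes fell as well. KLF1 had 238 and 237 FPKM in the sh-NC libraries, against 28.2 and 29.0 FPKM with sh-LDB1 (log2 fold change -3.01). GATA1 (-1.83) and TAL1 (-2.10) also passed the threshold. The share left was 12.04% for KLF1, 20.8% for TAL1 and 27.7% for GATA1, so KLF1 lay between RHAG and ERMAP in the order of the 9 and GATA1 beside KEL. Whether the falls of these activators bear on the membrane genes was not tested.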

How the data were processed

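The series holds RNA-seq of 4 libraries, 2 per group, grouped and numbered by the sample labels. After filtering, the authors aligned the reads using HISAT (HISAT2 2.0.5 and hg38 in the submitters' processing notes) and deposited FPKM per gene and library. Which annotation and counting tool were used, and whether strand was, is not given in the sources used here. All value columns were matched to a sample (0 were left over).

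Genes averaging 1 FPKM or more were tested as log2(FPKM + 1) with limma 3.58.1 in R 4.3.3 (eBayes with a trend), with Benjamini-Hochberg adjustment over all 13300 genes. Changes of low genes come out too small on this scale. Past the threshold means an adjusted p under 0.05 with a ratio over 2 or under 0.5. The study used DESeq2, which needs counts and was not used here.

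Reads behind a value were recovered from the steps of the FPKM. The length of each gene was fitted, as the one nearest its GENCODE release 44 length that gave whole reads in all libraries. This worked for 94.7% of genes, within 0.02 reads or, for genes with many reads, a wider margin in proportion to them. Of the recovered genes, 89.3% had a fitted length within 10% of the annotated one. Checked on simulated data, the fit called 45 of 47 genes lowered 8-fold (fold 0.125) among 11843 genes. Shared sequence was counted in windows of 50 bases, on both strands, over GENCODE transcripts.

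The members and lists were chosen with earlier results of these data known. Named were the 9 genes, LDB1, KLF1, GATA1, TAL1, the 3 genes of each list with the largest fold change, the nearest genes on each side of 5 of the 9 and the 5 profiles nearest to SLC4A1. An item withheld from this text is not reported here, and the neighbours of 4 genes were left out with it. Genes named outside this rule are said to be so in the text. The alternatives were another pseudocount, other filters, another scaling, a replicate block, no trend, leaving out each library and, chosen after seeing the data, voom on the recovered reads. The remaining steps used Python 3.11.15.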

Additional observations from a re-analysis of the deposited data

How the results depend on the processing

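The 9 membrane genes stayed lower past the threshold in each of the 11 alternatives, except that the filter of at least 1 FPKM in every library removed SLC4A1 and left 8 genes. The log2 fold change ranged from -5.67 (voom on recovered reads) to -4.03 for SLC4A1, from -4.52 to -3.65 for GYPB and from -1.78 to -1.45 for XK, and the largest limma adjusted p-value of any of the 9 was 0.00395. With every library scaled to the same sum of FPKM, the median of all genes moved by 0.14 on the log2 scale and the share of lower genes among all calls went from 52.0% to 38.5%. MACO1 (0.03), SVBP (0.08) and BSG (0.11) changed sign there, none past the threshold. Leaving out 1 library moved SVBP between -0.16 and 0.00 and BSG between -0.13 and 0.01. The counts over all genes, 1264 higher and 1371 lower, ran from 845 to 1742 higher and from 1001 to 1917 lower under the alternatives. A replicate block kept 9 of 9 genes lower, with 1274 higher and 1386 lower genes over all. The replicate numbers share only a number in the labels, and the deviations of same-numbered libraries correlated at 0.0196. Count tests with edgeR and DESeq2 were not run. The deposited values are FPKM, and the recovered reads were tested by voom only. Among the 9 genes depth limits GYPB and SLC4A1 most, at 37 and 39 reads in sh-LDB1 replicate 2.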
